A study of Mus musculus with 2 samples.

Results

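The interferon-inducible GTPases are large GTP-binding proteins of 2 families, the immunity-related GTPases (IRG) and the guanylate-binding proteins (GBP). The set described here held 9 genes, namely the IRG genes Iigp1, Igtp, Irgm1, Irgm2, Ifi47 and Tgtp1 and the GBP genes Gbp2, Gbp3 and Gbp8. The members were chosen by a measured value of these same arrays, the higher Iigp1 signal in the knockout, so that their ratios between the groups are given as a description and support nothing by themselves. All probe sets whose annotation named a member were taken, which gave 12 of the 22626 probe sets that are not controls, and 8 of the 12393 genes with a probe set of their own, Tgtp1 being read by a probe set that it shares. The material was RNA of uterine epithelial cells from mice on day 4 of pregnancy, separated from the uterus with trypsin and read on the Affymetrix Mouse Genome 430A 2.0 array. The control group is described in its title as Stat3 flox mice and in its genotype label as control, and the other group as Stat3 knockout. The title of the knockout sample names flox control mice as well, so the genotype label was used for both. Each group was 1 array of pooled RNA, with n = 3 per sample stated and not defined further. For strain, age and the Cre driver that removes Stat3, the labels used here give nothing.

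Both IRG and GBP proteins are produced after interferon, above all interferon gamma, and gather on the membranes of vacuoles that hold intracellular parasites or bacteria. The IRG family has effector members, among them Iigp1, Tgtp1 and Ifi47, which build up on such vacuoles, and regulator members, Irgm1, Irgm2 and Igtp, which keep the effectors inactive on the cell's own membranes. The GBP family assembles on pathogen membranes and exposed bacterial surfaces and helps to activate the inflammasome. Interferon gamma acts on gamma-activated sites (GAS) and through the transcription factor IRF1, while interferon alpha and beta act through a complex that holds STAT2 and IRF9 on interferon-stimulated response elements (ISRE).

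The promoters are shown first because the members were described as 1 interferon-induced family and the rule did not use their sequence. RefSeq promoters (build GRCm38.p6), reaching from 250 bases before to 50 bases after a start site, were matched for 7 of the 9 members; Iigp1 and Gbp8 were not matched. An ISRE core was searched as GAAANNGAAA on both strands and a GAS as TTCNNNGAA, which reads the same on both strands; matches of an ISRE core and a GAS overlapped in no member. Each stretch below runs from 110 to 11 bases before the start site in the direction of the gene, with ISRE and GAS matches in capitals.
Igtp: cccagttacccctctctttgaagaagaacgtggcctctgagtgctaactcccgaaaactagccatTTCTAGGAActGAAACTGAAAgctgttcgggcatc
Irgm2: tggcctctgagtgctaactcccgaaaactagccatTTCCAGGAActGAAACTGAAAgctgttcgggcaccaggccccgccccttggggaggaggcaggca
Tgtp1: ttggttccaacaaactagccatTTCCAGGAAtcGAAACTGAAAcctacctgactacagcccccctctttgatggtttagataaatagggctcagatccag
Irgm1: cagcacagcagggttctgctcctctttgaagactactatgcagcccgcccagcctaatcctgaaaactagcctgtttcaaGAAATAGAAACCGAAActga
Gbp2: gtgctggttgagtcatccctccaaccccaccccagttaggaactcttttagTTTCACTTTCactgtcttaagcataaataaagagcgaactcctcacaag
Gbp3: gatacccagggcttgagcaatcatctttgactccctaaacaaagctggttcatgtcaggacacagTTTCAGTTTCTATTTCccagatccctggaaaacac
Ifi47: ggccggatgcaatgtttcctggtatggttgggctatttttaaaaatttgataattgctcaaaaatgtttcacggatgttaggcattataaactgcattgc

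The Igtp stretch lies at chr11:58199446-58199545 on the plus strand and the Irgm2 stretch at chr11:58214867-58214966 on the plus strand. The Tgtp1 and Irgm1 stretches lie on the minus strand, at chr11:48992257-48992356 and chr11:48871431-48871530. The Ifi47 stretch is chr11:49076477-49076576 on the plus strand. Both GBP stretches are on the plus strand of chromosome 3, at chr3:142620553-142620652 for Gbp2 and chr3:142559934-142560033 for Gbp3, where the table held a second start without a match to either motif.

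Of the 7 members, 6 held an ISRE core, against 3.44% of all 32851 promoters and 3.99% of all 27025 genes in the table. Only Ifi47 had no match to either motif among the starts listed here. In Irgm1 and in Gbp3 a pair of ISRE cores overlapped, beginning 30 and 24 bases before the start in Irgm1, and 45 and 39 bases before it in Gbp3. The single ISRE core began 34 bases before the start in Igtp, 64 in Irgm2, 77 in Tgtp1 and 59 in Gbp2. It lay on the strand of the gene in all 4 IRG genes with a match and on the opposite strand in both GBP genes.

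The GAS motif was found in 3 of the 7 members, Igtp, Irgm2 and Tgtp1, against 8.30% of all promoters and 9.55% of all genes in the table. In these 3 the ISRE core began exactly 11 bases after the GAS, a spacing that was noticed in these sequences and then counted. It occurred in 5 of the 32851 promoters on the strand of the gene, those of Igtp, Irgm2, Tgtp1, its near-identical copy Tgtp2 and Gm12185. The longest run shared by the promoters of Igtp and Irgm2, which are adjacent genes, was 61 bases. It began 11 bases before the start site in Igtp and 41 in Irgm2, after both the GAS and the ISRE core. Tgtp1 and Irgm2 shared a run of 20 bases that ended with the GAS, aaactagccatttccaggaa. Among the measured genes with a promoter in the table, 8.05% of 497 genes at least 2-fold higher in the knockout array held an ISRE core, 3.78% of 5614 genes within 2-fold and 2.81% of 677 genes at least 2-fold lower. For the GAS the shares were 8.25%, 7.78% and 8.27%. Among the 497 are the members Igtp, Irgm1, Irgm2, Gbp2 and Gbp3 and their paralog Gbp7, all with an ISRE core. The member Ifi47 is among them too, without a match to either motif. These members belong to the set chosen by the rise of Iigp1, and they were not left out of the shares. A match shows only that the letters are present, and the shares by ratio were not tested.

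**Figure D1:**
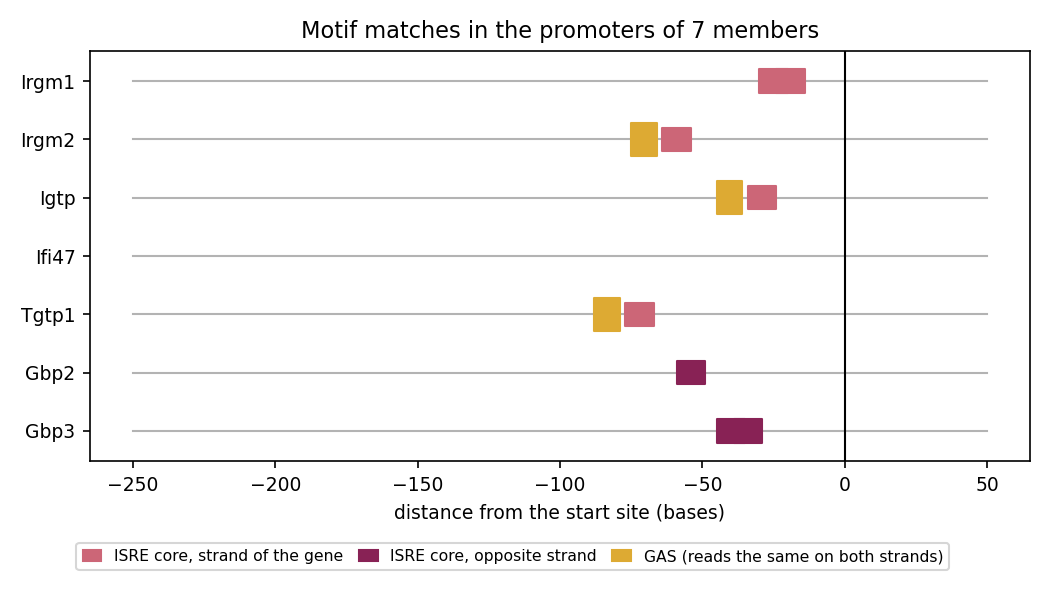
Motif matches in the promoters of 7 member genes, drawn by distance in bases from the start site (line at 0), with ISRE cores on the strand of the gene, ISRE cores on the opposite strand and GAS motifs in different colours. In Irgm2, Igtp and Tgtp1 the GAS lies directly before the ISRE core, and Ifi47 shows no match.

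Values are MAS5 signals, the linear brightness of a probe set after background correction. Both arrays had been scaled to a like level before deposit, with a mean of 150.1 in each after 2% of probe sets were removed at each end. Stat3 itself, the targeted gene, read 582 (control) and 186 (knockout) in its brightest probe set and 430.0 and 160.0 in another, while the dimmest read 6.66 and 3.35; whether these lie in the deleted part is not known here. All 9 markers of the epithelium were over the floor, a signal of 14.0 under which values were not read, with 4220 and 4289 for Krt8 and 2275 and 2708 for Cdh1. Of these 9, Krt7 was past 2-fold, lower in the knockout (1592 and 460.3), Epcam read 3003 and 2335, and Sox17 read 2802 and 5185. With 1 array per group there is no replicate, no test and no error for animals or arrays. The only error measured was between probe sets of a gene: over 2853 genes with a second measured probe set, the robust SD of the log2 ratio was 0.22 per probe set, or 0.32 for a difference of 2 ratios. In RNA of mixed cells, fewer cells of a type and less RNA per cell cannot be told apart.

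Every member was higher in the knockout array. All 9 genes were at least 2-fold higher and 0 were lower, beside 7.37% higher and 9.92% lower among 8304 measured genes. By probe set, 11 of the 12 were measured and all 11 were at least 2-fold higher, beside 7.56% higher and 8.9% lower among 14355 measured probe sets. The median log2 ratio of the members was 2.53, and that of all genes 0.05. Because Iigp1's rise chose the list, nothing is read from these counts. The higher count was 9 of 9 genes at 3-fold too, and 7 of 9 with the floor at the 60th percentile, where the bounds of Gbp3 (0.91) and Gbp8 (0.34) were under the limit.

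**Figure D2:**
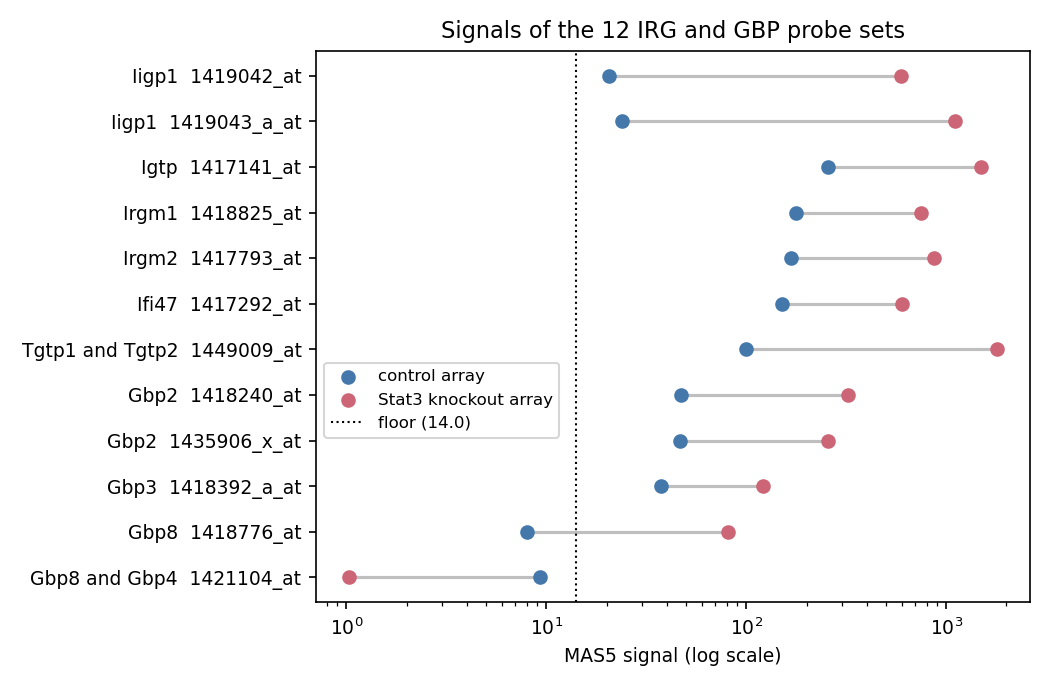
MAS5 signals (log scale) of the 12 probe sets of the 9 member genes on the control array and the Stat3 knockout array, with the floor of 14.0 as a dotted line. In 11 probe sets the knockout signal is the higher one, and the probe set that lists Gbp8 and Gbp4 is under the floor on both arrays.

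Among the IRG effectors, Iigp1 (also called Irga6), a GTPase that coats the vacuole of Toxoplasma, had the largest ratio. Probe set 1419043_a_at read 23.8 in the control and 1099 in the knockout, a log2 ratio of 5.53 or 46.2-fold. Probe set 1419042_at of the same gene read 20.5 and 596, a log2 ratio of 4.86 or 29.1-fold. Both control signals were close to the floor and both knockout signals far above it. The ratios of these probe sets differed by 0.67 on the log2 scale, a difference reached or passed in 8.17% of genes with a second probe set.

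Tgtp1 (Irgb6), an early arriving effector, was read by probe set 1449009_at, which also lists Tgtp2, so that the pair of copies cannot be told apart. It read 99.5 on the control array and 1799.9 on the knockout array, a log2 ratio of 4.18 or 18.1-fold. Among all 8304 genes 2 had a higher ratio, Iigp1 and Cmbl, where genes with only a bound were counted at that bound. Ifi47 (Irgd), an effector that lies next to Tgtp2 in the genome, read 150.3 and 601 in probe set 1417292_at, a log2 ratio of 2.00. The effectors therefore spanned ratios from 4.00-fold to 46.2-fold.

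The 3 regulator genes were over the floor on both arrays and had ratios close to each other. Igtp (Irgm3) read 257 in the control and 1488 in the knockout, a log2 ratio of 2.54 or 5.80-fold. Irgm2, its neighbour, read 168 and 871, a log2 ratio of 2.38 or 5.20-fold. Irgm1, which is known also for a part in autophagy and in the survival of blood stem cells, read 177 and 746, a log2 ratio of 2.07 or 4.21-fold. The regulators thus lay between 4.21-fold and 5.80-fold.

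Of the GBP genes, Gbp2, which gathers on Toxoplasma vacuoles and on bacteria, read 47.1 in the control and 323 in the knockout in probe set 1418240_at, a log2 ratio of 2.78. Its second probe set, 1435906_x_at, read 46.8 and 256, a log2 ratio of 2.45. These differed by 0.32, a size reached or passed in 33.6% of genes with a second probe set. Gbp3, a neighbour of Gbp2b and Gbp7 in the same cluster, read 37.6 and 121 in its probe set 1418392_a_at. Its log2 ratio of 1.68, or 3.21-fold, was the smallest among members over the floor on both arrays, and it became a bound of 0.91 with the floor at the 60th percentile.

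Gbp8 belongs to another GBP cluster and was under the floor in the control. Probe set 1418776_at read 8.02 in the control and 81.1 in the knockout, which is at least 5.78-fold higher against the floor. The log2 bound of 2.53 became 0.34 with the floor at the 60th percentile, and the ratio was 3.34 with no floor. The other probe set naming Gbp8, 1421104_at, lists Gbp4 too and read 9.29 and 1.02. It was under the floor on both arrays, so no ratio was formed, and its deposited signals ran the other way.

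By the log2 ratio of the brightest probe set the order was Iigp1, Tgtp1, Gbp2, Igtp, Irgm2, Irgm1, Ifi47 and Gbp3. Gbp8 has no place in it, since its 2.53 is only a lower bound. Tgtp1 stood 1.40 above Gbp2. Iigp1 stood 1.35 above Tgtp1, but its other probe set, at 4.86, was closer, and with the floor at the 60th percentile its ratios were only bounds of 4.10 and 3.21, beside 4.18 for Tgtp1. Igtp stood 0.24 under Gbp2, Irgm1 0.30 under Irgm2 and Ifi47 0.08 under Irgm1, gaps no larger than the 0.32 between probe sets, and Gbp3 stood 0.32 under Ifi47. Among all 8304 genes, 13 had a higher ratio than Gbp2, 21 a higher one than Igtp, 29 than Irgm2, 46 than Irgm1, 59 than Ifi47 and 126 than Gbp3. These counts are the least possible, because genes under the floor in the control entered at their lower bound.

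**Figure D3:**
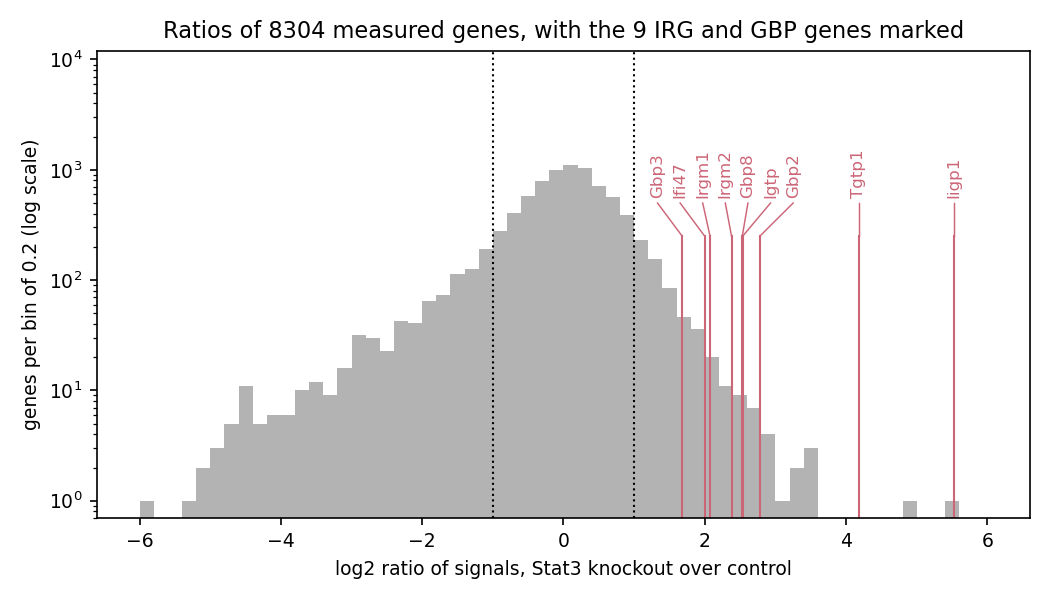
Number of genes (log scale) by log2 ratio of knockout over control in bins of 0.2 for 8304 measured genes, with the ratio of each of the 9 member genes as a vertical line and 2-fold limits dotted. Gbp8 stands at its lower bound, Tgtp1 comes from a probe set shared with Tgtp2 and is not among the 8304, and all 9 lines are right of the upper limit, from 1.68 for Gbp3 to 5.53 for Iigp1.

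Large GTPase genes that are not members were read where the array allowed. Of 17 listed, 5 had a probe set of their own and 3 of these were over the floor. Gbp7, which lies beside Gbp3, read 80.8 and 378 in its brighter probe set (log2 ratio 2.22) and 36.7 and 191 in the other (2.38). Gbp6 was under the floor in the control, with 12.8 and 58.3, at least 4.15-fold higher. Gbp2b, which lies between Gbp3 and Gbp2 and has an ISRE core in its promoter, was under the floor on both arrays with 10.7 and 1.70. The dynamin-like antiviral GTPase gene Mx1, known for induction by interferon alpha and beta, read 28.0 and 29.0, and Mx2 was under the floor with 3.09 and 10.5. Of the 3 measured, Gbp6 and Gbp7 were thus past 2-fold and Mx1 was not, and Gbp2b gave no ratio. Among all measured genes 7.37% were at least 2-fold higher.

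Nearly all ligands that induce the family were under the floor. Of 11 genes of interferons and of cytokines that induce interferon gamma with a probe set of their own, only Il18 was over the floor, with 71.0 and 62.4. Ifng, the gene of interferon gamma, read 0.303 in the control and 3.15 in the knockout, and Ifnb1 read 2.87 and 1.40, all under the floor. A probe set shared by 9 interferon alpha genes, Ifna1 and Ifna5 among them, read 0.988 and 16.6, just over the floor in the knockout, and a second one of the same genes read 5.61 and 6.69. Ifne, Ifnk, Ifnl2, Ifnl3 and Il27 had no probe set of their own in the table used here. The receptor subunits were measured in 5 of 5 genes. Of these 1 was at least 2-fold higher and 0 lower, beside 7.37% and 9.92% of all measured genes. Ifngr2, the signalling subunit of the interferon gamma receptor, read 190 and 458 (log2 ratio 1.27), and its dimmer probe set 36.3 and 68.4 (0.91). Ifngr1, the ligand-binding subunit, read 95.4 and 86.3, Ifnar1 70.8 and 88.1, Ifnar2 163 and 160.2, and Il10rb, a subunit of the interferon lambda receptor, 127 and 93.6.

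Between receptor and nucleus, 11 of 12 kinases, STATs and inhibitors were measured, and the median log2 ratio was 0.59. Past 2-fold, 2 were higher and 1 was lower, beside 7.37% and 9.92% of all measured genes. The 1 lower gene was Stat3. Stat2, a factor of the response to interferon alpha and beta, read 18.5 and 56.1 (log2 ratio 1.60), and its second probe set 18.1 and 57.2. Usp18, which restrains signalling at the interferon alpha and beta receptor, read 58.5 and 222 (1.92). Jak1 and Jak2, the kinases of the interferon gamma receptor, read 308 and 435, and 1285 and 1936, and Tyk2, a kinase of the interferon alpha and beta receptor, 86.3 and 139.7. Socs1, the main inhibitor of interferon gamma signalling, was under the floor with 3.47 and 13.5, while Socs3, a feedback inhibitor of the IL-6 family, read 184 and 92.8, or 1.98-fold lower. A dimmer Socs3 probe set read 48.5 and 20.8, past the limit, and another read 70.5 and 54.6 (log2 ratio -0.37), within 2-fold. With loess or without shared probe sets the lower count was 2.

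Of the interferon regulatory factors and transactivators 8 of 10 were measured, and the median log2 ratio was 0.77. Past 2-fold, 2 were higher and 0 lower, beside 7.37% and 9.92% of all measured genes. Irf1, the factor that acts on many IRG and GBP promoters after interferon gamma, read 173 and 391 (log2 ratio 1.18). Irf7, an amplifier of interferon alpha production, read 94.9 and 356 (1.91). Irf9, the DNA-binding part of the interferon alpha and beta complex, read 176 and 335 (0.93), just inside the 2-fold limit. Irf2, an antagonist of Irf1, read 118 and 127, and Irf8, a factor of myeloid cells, 15.4 and 16.9. Irf3 read 312 and 357, and Irf5 15.4 and 30.2, the latter also just inside the limit. Both Irf1 and Irf7 are read only by probe sets that can report several transcripts.

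Among other genes known for induction by interferon gamma, 16 were measured, and 10 of them were past 2-fold on the higher side and 0 on the lower, beside 7.37% and 9.92% of all measured genes; the median was 1.16. The higher count was 5 at 3-fold and between 5 and 14 over all alternatives. The checkpoint ligand gene Cd274 was at least 8.43-fold higher (10.9 and 118), and the antigen processing genes Tap1, Psmb9 and Tap2 were 6.61-fold, 6.57-fold and 3.19-fold higher. Casp4, whose caspase senses bacterial lipopolysaccharide with the help of GBP proteins, read 24.6 and 124 (log2 ratio 2.34). Of those within 2-fold the brightest were Psme1 (1042 and 1190.5), Serping1 (1032 and 677) and Casp1 (293 and 479). The chemokine genes Cxcl9, Cxcl10 and Cxcl11, which attract T cells and were picked after their values were seen, were under the floor on both arrays. The highest of their signals was 12.5, for Cxcl10 in the knockout.

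Genes known for induction by interferon alpha and beta had a median of 0.78 over 28 measured, of which 11 were past 2-fold upward and 0 downward, beside 7.37% and 9.92% of all measured genes. The 11 became 6 with the floor at the 60th percentile, 7 with the floor added to both signals and 7 without probe sets shared between transcripts. Oasl2 (9.67-fold), Ifit3 (5.27-fold), Rsad2 (4.34-fold), Ifit1 (4.12-fold) and Usp18 (3.79-fold) had the largest ratios. The brightest within 2-fold were Ifitm3 (3879 and 4032), Rtp4 (516 and 802) and Lgals3bp (423 and 810). Oas1a read 366 and 372 and Oas2 73.7 and 54.7, and both names were picked after their values were seen. Log2 ratios ran from -0.43 to 3.27 in this list and from -0.61 to 3.08 in the interferon gamma list.

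Genes that serve IRG and GBP proteins were mostly within 2-fold. The conjugation machinery of autophagy is needed to load these GTPases on vacuoles, and of its 13 genes, with the ubiquitin ligases that act there, 0 were past the limit by their brightest probe set and 12 had a ratio above 0 (median 0.50). Among all 8304 measured genes, 4431 had a ratio above 0. Dimmer probe sets of Trim21 (1.07), Atg12 (1.11) and Gabarapl1 (1.15) were past the 2-fold limit, and the count was 1 with probe sets averaged. Gabarap read 1442 and 1825, Map1lc3b 578 and 816 and Gabarapl2 459 and 597. Of 7 measured inflammasome genes, Casp4 was past 2-fold, as was Zbp1, a sensor of Z-form nucleic acid (41.6 and 131). Among all measured genes 7.37% were at least 2-fold higher and 9.92% lower. The adaptor gene Pycard read 1037 and 915, and Casp8 453 and 619, while the sensor genes Aim2 and Nlrp3, also picked after their values were seen, were under the floor.

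**Figure D4:**
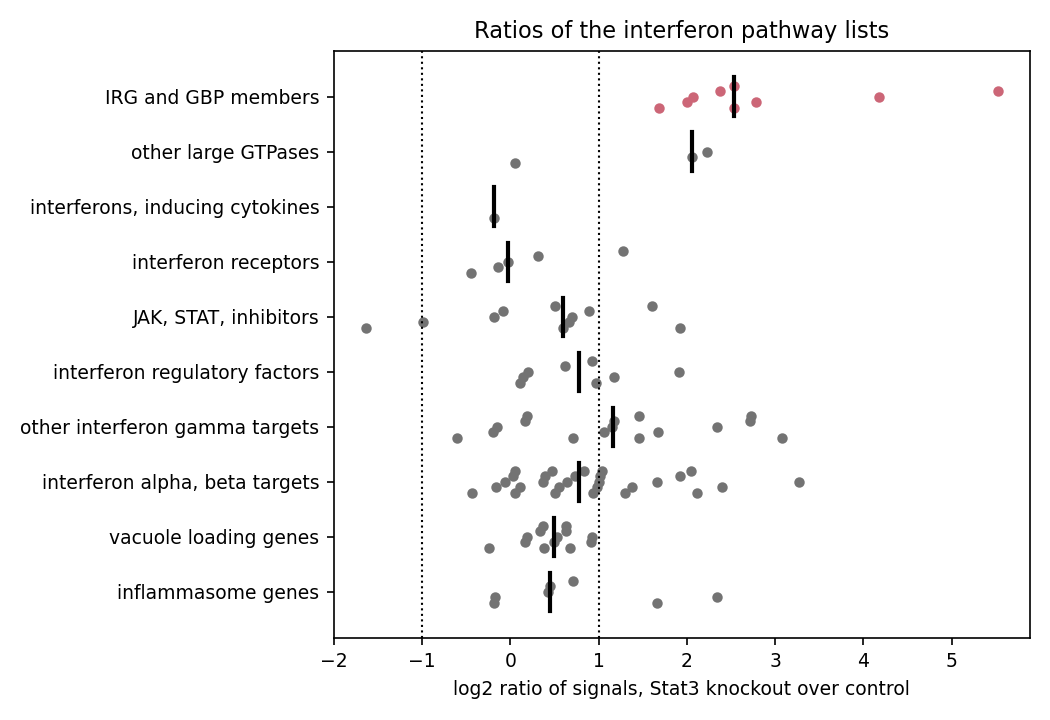
Log2 ratio of knockout over control for each measured gene of the IRG and GBP members and of 9 lists of the interferon pathway, 1 point per gene, with the list median as a black bar and 2-fold limits dotted. All members lie at 1.68 or higher, while the points of the other lists spread on both sides of the upper limit or stay under it. The list of interferons and cytokines has a single point, Il18 at -0.19.

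IRG and GBP genes are also made by leukocytes and endothelium, so their markers are given beside the members. Of 16 T and NK cell markers 2 were over the floor, Klrd1 (16.7 and 21.5) and Gzma (5.39 and 19.3, so over it in the knockout only), and the signals of the list summed to 98.0 (control) and 108 (knockout). Cd3e, Cd3d, Cd3g, Cd4, Cd8a and Ncr1 were under the floor on both arrays. Of 14 macrophage and dendritic cell markers 10 were measured, and the sum was 746 and 1071. A ratio above 0 was found in 9 of these, beside 4431 of 8304 measured genes, and 1, C1qa, was past 2-fold. Cd68 (81.1 and 44.4) was the only measured marker of this list with a ratio under 0. Itgam, Itgax and Mrc1 were under the floor, and Lyz2 (154 and 296) and Csf1r (85.8 and 144) were within 2-fold. All 7 neutrophil markers were under the floor. Of the B cell markers, Cd79b was lower (44.5 and 7.79). The 4 markers of all leukocytes summed to 298 and 213, a sum led by Laptm5 (227 and 118), while the other 3 had ratios above 0: Ptprc (CD45) read 34.4 and 38.2, Coro1a 16.9 and 23.6, and Cd53 19.4 and 33.7. Endothelial markers summed to 71.4 and 58.5, with Pecam1 and Kdr under the floor, stromal markers to 2290 and 3137 and muscle markers to 137 and 99.8. Sums were taken over all markers of a list with a probe set of their own, also those under the floor. Signals under the floor made up most of the T and NK cell sum and of the endothelial sum. The part of these cells in the members' ratios was not tested.

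Likeness to the members was measured as the Euclidean distance between pairs of log2 signals over the 2 arrays, among genes over the floor on both. Nearest to Iigp1 were Cmbl (distance 0.72, signals 23.2 and 670), Stc1, Oasl2 (1.60), Gsta2 (1.85) and Sema3e (1.85). Nearest to the median pair of the members were Cat (0.21, signals 114 and 710), Krt10 (0.35), Sla (0.40), Psmb9 (0.47) and Slc6a14 (0.54). Of these 10 genes only Oasl2 and Psmb9 are in the interferon lists used here.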

How the data were processed

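Per the labels' protocols, RNA of trypsin-separated uterine epithelium was hybridised to 2 arrays, 1 control and 1 Stat3 knockout. The authors deposited linear MAS5 intensity values, made with Affymetrix Expression Console 1.1 per the submitters' processing notes. Detection calls, batch and date were not used here, so no probe-level setting could be varied, and the arrays' number limits the precision.

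Of 22690 probe sets, 64 were controls. The platform annotation, possibly outdated, gave a single gene for 20380 of the remaining 22626, more than 1 for 691 and no gene for 1555; symbols were updated through RefSeq (GRCm38.p6) by gene ID (99.9% matched). Signals under the 40th percentile (14.0) were set to it; with 1 array over it the ratio is a bound, with none there is no ratio. The brightest probe set stood for a gene. Differences were counted at 2-fold, without tests. Calculations (Python 3.11.15, pandas 2.3.3) were tested on simulated data. All members were named; paralogs, ligands, receptors, kinases and factors could be named, and in other lists up to 5 past 2-fold and the 3 brightest others, plus the 5 nearest in signal. Members and lists were chosen with earlier results of these data known. Alternatives changed the floor, scaling, fold and probe sets.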

Additional observations from a re-analysis of the deposited data

How the results depend on the processing

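With 1 array per group, no replicate could be left out. No paired analysis was possible because each group has 1 sample. The count of 9 member genes at least 2-fold higher was also 9 with each scaling alternative (median centring, quantile normalization, loess), at 1.5-fold and at 3-fold, and with no floor or a floor at the 20th percentile. With the floor at the 60th percentile (64.3) it was 7: Gbp3 had a log2 bound of 0.91 and Gbp8 one of 0.34. It was 8 where probe sets of several genes (Tgtp1), shared probe sets (Gbp3) or Iigp1 were left out. The count of member probe sets at least 2-fold lower went from 0 to 1 with no floor and with a floor at the 20th percentile, through the probe set of Gbp8 and Gbp4, which then had a ratio. The members' median log2 ratio of 2.53 was 2.29 with the floor added to both signals, which lowers ratios of dim genes by construction. The Iigp1 ratios lay between 4.10 and 5.59 in one probe set and between 3.21 and 4.92 in the other, lowest with the floor at the 60th percentile, which is above their control signals, and that of Tgtp1 between 4.00 and 4.24. In the pathway lists 34 alternative values moved beyond the spread between probe sets or by over 1.5 times and 245 did not. Without probe sets shared between transcripts, 0 interferon regulatory factors were past 2-fold, because Irf1 and Irf7 then had no probe set left.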
